A study of Mus musculus with 12 samples.

Results

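Zfp genes encode zinc finger proteins, and their mRNAs were followed here through an anti-ORF1p co-immunoprecipitation from testes of Mael-/- mice. ORF1p is the RNA-binding protein of the retrotransposon LINE-1 (L1), which is overexpressed in germ cells that lack the piRNA factor Maelstrom. The members are the gene rows whose symbol is Zfp followed by a number and at most 1 letter and whose mean normalized read count in TOTAL RNA was at least 50. Of 20981 gene rows, 350 carried such a symbol and 266 also reached the floor, with TOTAL means between 50.3 and 6644. The nearest members inside it were Zfp108 (50.3), Zfp109 (50.4) and Zfp93 (52.1), and the nearest outside were Zfp935 (49.2), Zfp607 and Zfp708 (both 49.0). The members were chosen by the TOTAL mean, so the comparison of IP with TOTAL is a description. A total of 12298 genes of all kinds had the same floor and serve as the background.

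All 12 libraries, 3 in each of 4 groups, came from whole testes of C57BL/6 Mael-/- animals aged 3 months, so neither a wild-type testis nor a sorted cell type enters any comparison. TOTAL is RNA of the clarified testis extract, to which EDTA was added to 10 mM, and INPUT is RNA of fractions 5 to 8 of a sucrose gradient of that extract. IP is the RNA recovered from INPUT with the anti-ORF1p antibody, and BO (Beads Only) is the RNA recovered from INPUT on beads with no antibody. For genes, the deposited tables hold 1 mean of normalized counts per group and comparison and no value per library. Leaving out a library, or computing how libraries of a group vary, was therefore not possible for a gene. The standard errors and p-values that the tables list for the authors' own comparisons were not used, so every difference below is one of size between group means, given without a replicate check. In whole tissue, a low level can come from fewer cells of a type or from less RNA per cell, which cannot be told apart. The quantity used is the log2 ratio of 2 group means, each with a pseudocount of 1, and more than 2-fold means a log2 ratio above 1 or below -1. The depth of the gene counts is unknown, since the tables give no totals per library. In the repeat data of the same libraries, the recovered reads numbered 1384904 to 7282171, lowest in IP and highest in TOTAL. Large subunit rRNA took 52.1% of these reads in BO replicate 3 and 1.93% to 15.9% in the other 11 libraries, and that BO library is part of every BO mean below.

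The C2H2 zinc finger is a short protein fold in which paired cysteines and paired histidines hold a zinc ion, and tandem arrays of such fingers read DNA sequence. Many mammalian members also carry a Krüppel-associated box (KRAB), which recruits the corepressor TRIM28 and, through it, the histone methyltransferase SETDB1 and HP1 proteins. KRAB zinc finger proteins are best known for silencing transposable elements, and their genes lie in clusters of related copies. Other Zfp genes have no KRAB box and encode transcription factors, RNA-binding proteins or proteins of the spindle.

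Of the 266 members, 265 had a coding model in GENCODE M21 (mm10), and Zfp783 is annotated there as a transcribed pseudogene. Translated coding sequences held at least 1 C2H2 pattern (C, 2 to 4 residues, C, 12 residues, H, 3 to 5 residues, H) in 258 members, with a median of 10 and at most 36, in Zfp142. The 7 without one were Zfp36, Zfp185, Zfp330, Zfp503, Zfp703, Zfp750 and Zfp839. A KRAB pattern was found in 92 members and not in the other 173. This pattern is short and misses some KRAB boxes, so the second class may still contain KRAB genes. Members with the pattern had lower TOTAL means (median 165 normalized counts) than those without it (median 360), lower GC content of the longest transcript (median 41.7% against 48.3%) and similar transcript lengths (median 3759.5 nt against 3940 nt).

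The first C2H2 finger of 5 members is shown because these are the genes at the ends of the comparisons below. Zfp541 and Zfp473 had the highest ratios of IP to TOTAL, Zfp871 the lowest ratio of IP to BO, and Zfp874a and Zfp874b the lowest ratios of IP to TOTAL. The sequences are the coding strand of GENCODE M21 transcripts, 5′ to 3′, and capitals mark the codons of the cysteines and histidines that hold zinc. The Zfp541 finger lies at chr7:16076463-16076525 (plus strand), that of Zfp473 at chr7:44734215-44734277 (minus strand) and that of Zfp871 at chr17:32775555-32775617 (minus strand). Those of Zfp874a and Zfp874b lie at chr13:67443087-67443149 and chr13:67474704-67474766 (both minus strand). All 5 are coding parts of 1 exon in mm10.
Zfp541: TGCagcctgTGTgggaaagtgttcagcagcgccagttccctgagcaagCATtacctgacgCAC
Zfp473: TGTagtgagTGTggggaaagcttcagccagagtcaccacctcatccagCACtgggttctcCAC
Zfp871: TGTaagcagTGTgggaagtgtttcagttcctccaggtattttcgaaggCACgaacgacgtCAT
Zfp874a: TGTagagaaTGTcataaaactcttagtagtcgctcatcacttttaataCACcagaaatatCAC
Zfp874b: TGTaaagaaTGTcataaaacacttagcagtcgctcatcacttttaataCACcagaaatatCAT
The fingers of the neighbouring genes Zfp874a and Zfp874b are near copies of each other. Over the 9 fingers of equal length in both, 14 of 567 bases differed, and 2 fingers were the same in all bases. Reads that fit more than 1 place sit in a row of their own in the gene tables, so values of such copies are uncertain. For 20 members, at least 10% of the 75-base words (the read length) of the transcripts also occur in another gene, up to 49.6% in Zfp58, 44.8% in Zfp524 and 39.1% in Zfp59.

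Relative to TOTAL RNA, Zfp mRNAs stood somewhat higher in the IP than the typical gene. The median log2 ratio of IP to TOTAL was 0.40 over the 266 members and -0.02 over the 12298 background genes, and 175 members (65.8%) lay above the background median. Of the members, 55 (20.7%) were more than 2-fold higher, where 20.1% of the background was, and 23 (8.65%) were more than 2-fold lower, where 25.8% of the background was. The share on the high side was near the background, and the share on the low side was below it. Scaling all means to the same sum over genes moved the median of all genes to -0.53 and that of the members to -0.12. The direction of the median itself thus depends on the scaling, while the distance between members and background does not. That holds by construction, since a scaling shifts all genes of a comparison alike. With that scaling, 18 members were more than 2-fold higher and 53 lower, against 9.07% and 37.8% of the background. The members together made up 1.01% of the summed gene means in TOTAL and 1.34% in IP. Spermatocyte markers moved the same way as the higher members. All 8 of them were at the floor, and their summed mean was 31250 in TOTAL and 187300 in IP of the same table, while the summed mean of 6 Sertoli cell markers was 33500 in TOTAL and 8879 in IP and that of 5 Leydig cell markers 77570 and 15230. The summed mean of 7 spermatogonial markers was also lower in IP, with 7771 in TOTAL and 3765 in IP. Among peritubular and vessel markers, Myh11 (log2 0.21) and Pecam1 (0.41) were slightly higher in IP and Acta2 (-2.59) was lower. Of 6 spermatid markers, 1 reached the floor. The part of cell type in the Zfp ratios was not tested.

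The highest ratio belonged to Zfp541, a germ cell protein that acts with histone deacetylases in meiosis. Its mean was 629 in TOTAL and 5099.8 in IP, 8.1 times as high (log2 3.02). Zfp473, whose human homologue takes part in histone pre-mRNA 3′ end processing, had a mean of 189 in TOTAL and 1379 in IP (log2 2.86). Zfp654 (2517 and 13002, log2 2.37), Zfp438 (288 and 1382, log2 2.26) and Zfp407 (1212 and 5455, log2 2.17) came next. These genes did not share a level, since their TOTAL means ran from 189 to 2517. At the other end, Zfp874b had a mean of 124 in TOTAL and 28.6 in IP (log2 -2.07), and its near copy Zfp874a 153 and 36.7 (log2 -2.03). Zfp414 (log2 -1.80), Zfp524 (-1.72) and Zfp300 (-1.60) followed, all with IP means between 21.8 and 30.4. The plot of TOTAL against IP means shows that the members with the lowest ratios also had low TOTAL means. Across the 266 members, the ratio of IP to TOTAL had a Spearman rho of 0.42 with the TOTAL mean and 0.35 with the length of the longest transcript (0.18 and 0.45 over the background). With the median transcript in place of the longest, the members' rho with length was 0.18. Genes of the same libraries do not replicate each other, so these correlations describe the list, and the ratio and the TOTAL mean share a measurement.

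**Figure D1:**
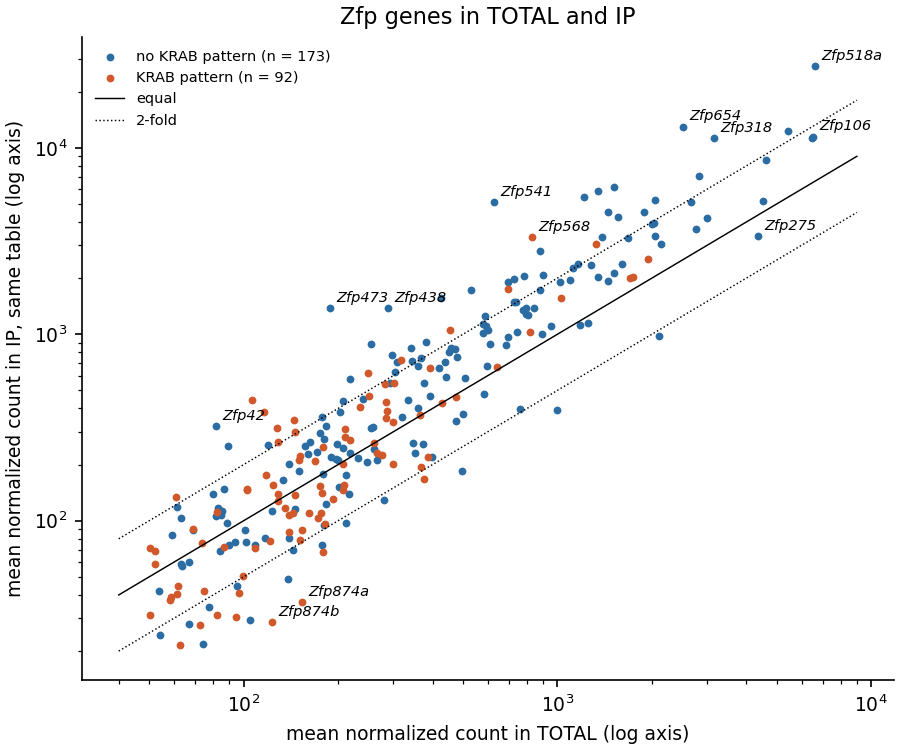
Mean normalized count in TOTAL (x axis, log scale) against the mean in IP of the same table (y axis, log scale), with 1 point per Zfp gene with a coding model, 92 with the KRAB pattern and 173 without. The solid line marks equal means and the dotted lines 2-fold differences. Zfp541, Zfp473, Zfp654 and Zfp438 lie farthest above the upper dotted line, and Zfp874a and Zfp874b lie below the lower one.

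The comparison of IP with INPUT starts from the same gradient fractions and asks what the antibody and beads recovered from them. Here the median of the members lay close to that of the background, with log2 ratios of 0.31 and 0.16, and 158 members (59.4%) lay above the background median. The low side differed more, with a lower quartile of -0.10 over the members and -0.565 over the background. More than 2-fold higher were 44 members (16.5%), where 19.6% of the background was, and more than 2-fold lower were 5 (1.88%), where 14.6% of the background was. Scaling to the same sum over genes moved both medians below 0, to -0.22 for the members and -0.37 for all genes. With it, 11 members were more than 2-fold higher and 29 lower, against 8.08% and 27.7% of the background. When centred on the median gene, 31 were higher and 10 lower, against 15.2% and 17.8%.

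Zfp438 had the highest ratio of IP to INPUT, with a mean of 307 in INPUT and 1389 in IP (log2 2.17). Zfp473 (362 and 1385, log2 1.93), Zfp42 (86.3 and 322, log2 1.89), Zfp541 (1392 and 5117, log2 1.88) and Zfp39 (322 and 1064, log2 1.72) followed. Zfp42 is Rex1, a marker of pluripotent stem cells that is also expressed in male germ cells. The 5 members more than 2-fold lower were Zfp300 (82.3 in INPUT and 30.5 in IP, log2 -1.40), Zfp275 (7697 and 3363, log2 -1.19), Zfp692 (168 and 74.5, log2 -1.16), Zfp933 (178 and 79.3, log2 -1.16) and Zfp874a (77.9 and 36.9, log2 -1.06). Zfp275 was the one of the 5 with a high level, whereas the other 4 had INPUT means under 200.

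The comparison with BO sets the make-up of the RNA in the IP beside that of the RNA on bare beads from the same INPUT. The counts are normalized, so a ratio compares shares of the libraries. How much RNA the bare beads recovered is not given by these values. In this comparison the Zfp genes stood apart from the background in the opposite direction. The median log2 ratio of IP to BO was 0.01 over the members and 0.82 over the background, and 56 of the 266 members (21.1%) lay above the background median. More than 2-fold higher in IP were 46 members (17.3%), against 44.0% of the background. More than 2-fold lower were 47 (17.7%), against 10.7%. When each comparison was centred on the median gene, 11 members were more than 2-fold higher and 113 more than 2-fold lower, against 17.7% and 23.6% of the background. With means scaled to equal sums, 31 were higher and 69 lower, against 34.1% and 14.3%. Set across tables that were normalized separately, the median log2 ratio of BO to INPUT was 0.42 over the members and -0.60 over the background, and 228 members (85.7%) lay above the background median. More than 2-fold higher in BO than in INPUT were 62 members (23.3%), against 9.05% of the background, and 20 (7.52%) were more than 2-fold lower, against 35.4%. Zfp genes made up 2.25% of the summed gene means in BO. Before the beads, the median log2 ratio of INPUT to TOTAL, also set across tables, was 0.02 over the members and -0.16 over the background. It was above 1 in 2 members (0.752%, against 1.98% of the background) and below -1 in 17 (6.39%, against 18.5%). Marker sums also differed between BO and IP of the same table. They were 17590 in BO and 143600 in IP for the 8 spermatocyte markers, 5908 and 2881 for 7 spermatogonial markers, 10360 and 6787 for the Sertoli cell markers, and 5666 and 11640 for the Leydig cell markers. All 8 spermatocyte and all 5 Leydig cell markers were higher in IP than in BO. The other sums hide mixed directions, since 5 of the 7 spermatogonial markers and 3 of the 6 Sertoli cell markers were higher in IP. Kit (4494 in BO and 1309 in IP) carried most of the spermatogonial sum in BO. The part of cell type was not tested. The rRNA-rich BO replicate is part of the BO mean, and its part in the result was not tested.

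The lowest ratio of IP to BO was that of Zfp871, a KRAB gene with 15 C2H2 patterns. Its mean was 26816 in BO and 1944 in IP of the same table (log2 -3.79), while its means in INPUT and IP were 2511 and 2548 (log2 0.02) and in TOTAL and IP 1943 and 2541 (log2 0.39). The gene was thus near equal in IP, INPUT and TOTAL, and BO alone was high, more than 10-fold above the other groups. It had the highest BO mean of all members, ahead of Zfp518a (25305). Zfp945 (955 in BO and 149 in IP, log2 -2.67), Zfp52 (143 and 24.1, log2 -2.52), Zfp958 (184 and 31.3, log2 -2.52) and Zfp300 (133 and 23.2, log2 -2.47) followed. The highest ratio of IP to BO belonged to Zfp330, a nucleolar protein gene, with means of 220 in BO and 979 in IP (log2 2.15). Zfp385a (log2 2.11), Zfp771 (2.11), Zfp511 (2.08) and Zfp593 (2.08) had BO means between 22.1 and 46.6. Zfp593, a factor of large ribosomal subunit assembly, had means of 227 in INPUT and 263 in IP (log2 0.21), so it was high against BO and near equal against INPUT.

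**Figure D2:**
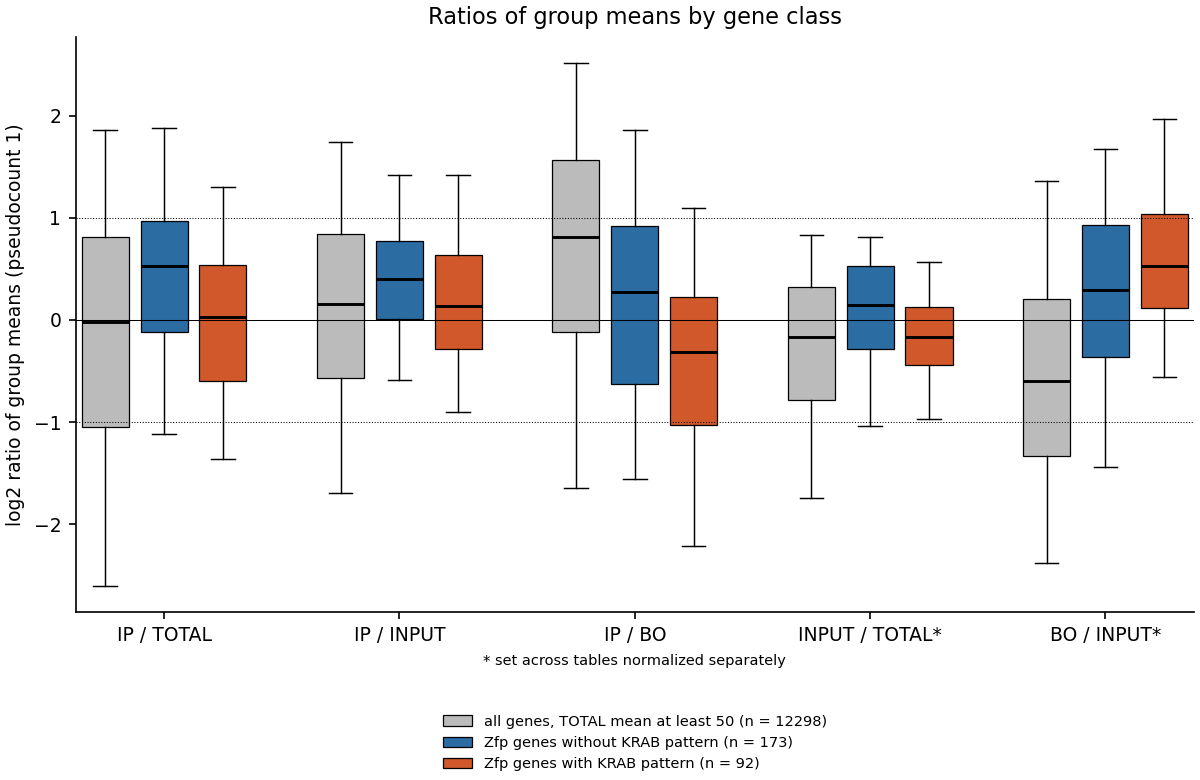
Log2 ratios of group means for the 12298 background genes (grey), the 173 Zfp genes without the KRAB pattern (blue) and the 92 with it (orange). Boxes span the quartiles with the median as a line, and whiskers run from the 5th to the 95th percentile. Ratios with an asterisk are set across tables normalized separately. In IP over BO the medians were 0.82, 0.27 and -0.31, and in BO over INPUT they were -0.60, 0.30 and 0.53, in the order of the colours.

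Both classes of Zfp genes showed less IP over BO than the background, and the KRAB class more so. The median log2 ratio of IP to BO was -0.31 over the 92 members with the pattern and 0.27 over the 173 without it. Of the 92, 7 (7.61%) were more than 2-fold higher and 24 (26.1%) more than 2-fold lower, where the background had 44.0% and 10.7%, and 8 (8.70%) lay above the background median. Of the 173, 39 (22.5%) were more than 2-fold higher and 23 (13.3%) more than 2-fold lower, the second share being near the background, and 48 (27.7%) lay above that median. In BO over INPUT, 89 of the 92 (96.7%) and 138 of the 173 (79.8%) lay above the background median. The KRAB class was at the background median in IP over TOTAL (0.03 against -0.02) and in IP over INPUT (0.14 against 0.16). The class without the pattern was above it in both (0.53 and 0.40). The difference between the class medians in IP over BO, -0.58, remained below 0 with other pseudocounts, other floors and at least 2 C2H2 patterns. It was smallest, -0.38, without a floor. The scalings shift all genes of a comparison alike, so they could not move this difference and say nothing about it.

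Transcript length and GC content moved with the ratios of IP to BO and of BO to INPUT, among the members and among all genes. In IP over BO, the members' median was 0.40 for longest transcripts under 3000 nt (66 genes), 0.09 from 3000 to under 5000 nt (126 genes) and -0.38 from 5000 nt (74 genes). The background medians in the same classes were 1.25, 0.75 and 0.09, so the Zfp genes were lower in each. By GC content of the longest transcript, the members' medians were -0.60 under 42% (85 genes), 0.13 from 42% to under 50% (98 genes) and 0.45 from 50% (83 genes), against 0.18, 0.64 and 1.0 in the background. Within the class under 42% GC, the median was -0.87 over the 49 KRAB members and -0.41 over the other 36. From 42% to under 50% GC, it was 0.07 over 36 KRAB members and 0.17 over 62 others. From 50% GC, it was 0.052 over 7 KRAB members and 0.495 over 75 others. By length, it was -0.17 over 25 KRAB members and 1.03 over 41 others under 3000 nt, and -0.24 over 46 and 0.38 over 79 between 3000 and 5000 nt. From 5000 nt the classes were close, with -0.43 over 21 KRAB members and -0.37 over 53 others. In BO over INPUT the Spearman rho was 0.33 with length and -0.43 with GC content over the 266 members, and 0.50 and -0.49 over background genes with a transcript length (12249 genes). The length relation of the members rests on the longest transcript. With the median transcript, the members' rho with length fell to 0.11 in BO over INPUT, and in IP over BO it was -0.30 with the longest and -0.06 with the median transcript. These are descriptions across genes of the same 12 libraries, and the part of length or GC content in the Zfp values was not tested.

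**Figure D3:**
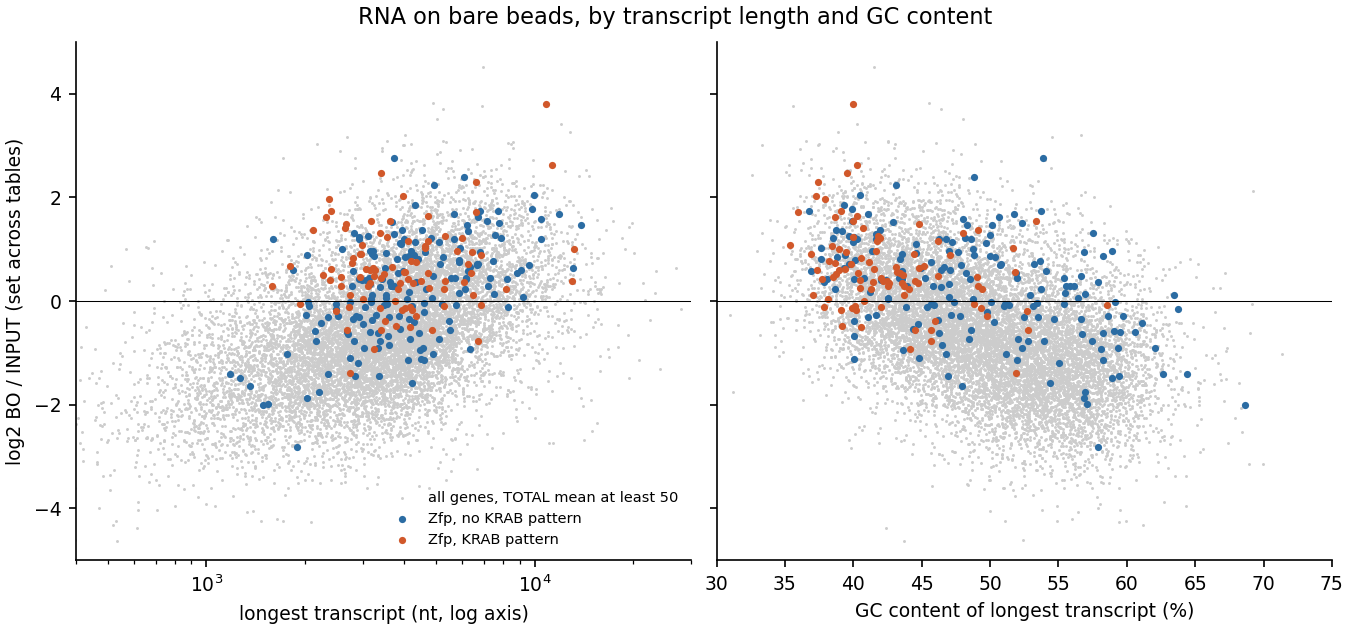
Log2 ratio of BO to INPUT (y axis, set across tables) against the length of the longest transcript (left, nt, log scale) and its GC content (right, %), for background genes (grey) and Zfp genes without (blue) and with (orange) the KRAB pattern. The axes leave out 36 background genes on the left and 3 on the right. Zfp871 is the highest Zfp point, at 3.81, and Zfp692 the lowest, at -2.82.

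By the number of C2H2 patterns, the 45 members with 2 to 5 had the highest medians, with 0.75 in IP over TOTAL, 0.67 in IP over INPUT and 0.75 in IP over BO. The 77 members with 6 to 10 had 0.38, 0.37 and 0.10. The 82 members with 11 to 15 had 0.26, 0.20 and -0.28, and the 44 members with 16 or more had 0.40, 0.36 and -0.16. The 17 members with 0 or 1 pattern had -0.40, 0.14 and -0.14. In IP over BO the Spearman rho with the number of patterns was -0.29 over the 265 members with a coding model. In IP over TOTAL and IP over INPUT the rho was -0.04 and -0.09. The number of patterns went together with class and GC content. Its median was 12 with the KRAB pattern and 8 without. Median GC content was 47.4% with 2 to 5 patterns, 43.4% with 11 to 15 and 43.0% with 16 or more. Within the classes, the rho in IP over BO was -0.28 over the 92 KRAB members and -0.19 over the other 173. The part of finger number itself was not tested.

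The members lie on 20 chromosomes, with 64 on chromosome 7, 32 on chromosome 17, 21 on chromosome 8 and 18 on chromosome 13. A total of 13 runs of at least 5 members, each starting within 1 Mb of the previous one, held 114 members. The run on chr13:67038596-67827002 contained 11 members, all with the KRAB pattern, and included Zfp874a and Zfp874b. Its median log2 ratio of IP to BO was -0.92, with no member more than 2-fold higher and 4 more than 2-fold lower, against 44.0% and 10.7% of the background. Its median GC content was 39.1%, and of all background genes under 42% GC, 33.4% were higher and 25% lower. On chr17:32765496-33631779, 12 members (11 with the pattern) had a median of -0.46, from -3.79 in Zfp871 to 1.22 in Zfp414, the one member without the pattern. On chr17:21008903-23599487, 17 members (12 with the pattern) had a median of -0.58. Within this run Zfp943 stood at 1.47 and Zfp945 at -2.67, so neighbouring KRAB genes differed widely. The run on chr6:47819266-48623227 contained 10 members, none with the pattern, and had medians of 0.67 in IP over BO and 1.07 in IP over TOTAL, with a median GC content of 55.0%. The background median in IP over BO was 0.82. The remaining runs were mixed. On chr7:27731389-28380253, 5 members, none with the pattern, had a median of -0.14 in IP over BO. On chr7:24081924-25227507, 10 members (6 with the pattern) had -0.01. On chr9:19622102-20605409, 6 members, all with the pattern, had -0.65. Members of a run share ancestry and sequence and are not independent of each other. All 7 members on the X chromosome were below 0 in IP over BO, with a median of -0.68 against 0.32 for all 508 background genes of that chromosome. The 7 were Zfp711, Zfp280c, Zfp275, Zfp449, Zfp182, Zfp185 and Zfp300. Also below 0 were 218 of the 508 genes, and 131 of all 266 members.

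Association with ORF1p beyond both controls was counted, by fold alone, as more than 2-fold higher in IP than in BO and than in INPUT. The authors also required a cutoff on the adjusted p-value in both comparisons, so a gene counted here need not meet their criterion. A total of 18 members met the fold criterion, 6.77% of the 266, against 15.4% of the background. With each comparison centred on the median gene the number was 4 (8.16% of the background), and with means scaled to equal sums it was 6 (6.86% of the background). In order of the ratio to INPUT they were Zfp438, Zfp473, Zfp42, Zfp541, Zfp39, Zfp654, Zfp128, Zfp943, Zfp105, Zfp330, Zfp143, Zfp949, Zfp207, Zfp511, Zfp35, Zfp1, Zfp612 and Zfp384. Of these, 11 (4.14% of the members) were also more than 2-fold higher than in TOTAL, against 9.64% of the background, and 5 of the 18 had the KRAB pattern.

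Among the 18 are regulators with known roles. Zfp207 encodes BuGZ, which binds Bub3 and microtubules at the spindle. Its means were 2390 in BO and 6558 in IP (log2 1.46), and 3760 in INPUT and 8598 in IP (log2 1.19). Zfp143, a promoter-bound activator of small nuclear RNA and mRNA genes, had 156 in BO and 570.0 in IP (log2 1.86), and 279 in INPUT and 747 in IP (log2 1.42). Zfp541 had 1105 in BO and 3903 in IP (log2 1.82). Zfp35, a gene expressed in spermatocytes, had 36.2 in BO and 82.4 in IP (log2 1.16). Levels in this set were low to moderate for most genes, with BO means over 1000 only for Zfp541, Zfp654 and Zfp207.

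A further 8 members were more than 2-fold higher in IP than in INPUT yet below 0 in IP over BO, which is 3.01% of the members against 0.862% of the background. They were Zfp518a, Zfp217, Zfp800, Zfp281, Zfp712, Zfp131, Zfp81 and Zfp830. Zfp518a had the highest TOTAL mean of all members. Its mean was 6644 in TOTAL and 27456 in IP (log2 2.05), 9925 in INPUT and 27525 in IP (log2 1.47), but 25305 in BO and 21012 in IP (log2 -0.27). Zfp281, a transcription factor of GC-rich promoters, had 2491 in INPUT and 5253 in IP (log2 1.08), and 8972 in BO and 4009 in IP (log2 -1.16). By this choice of genes their log2 ratios of BO to INPUT lie above 1, and they ran from 1.20 in Zfp830 to 2.30 in Zfp81. Likewise, 13 members (4.89%) were more than 2-fold higher than in TOTAL and below 0 over BO, against 2.30% of the background. More than 2-fold lower in IP than in both BO and INPUT were 2 members, Zfp275 and Zfp300, against 4.29% of the background.

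**Figure D4:**
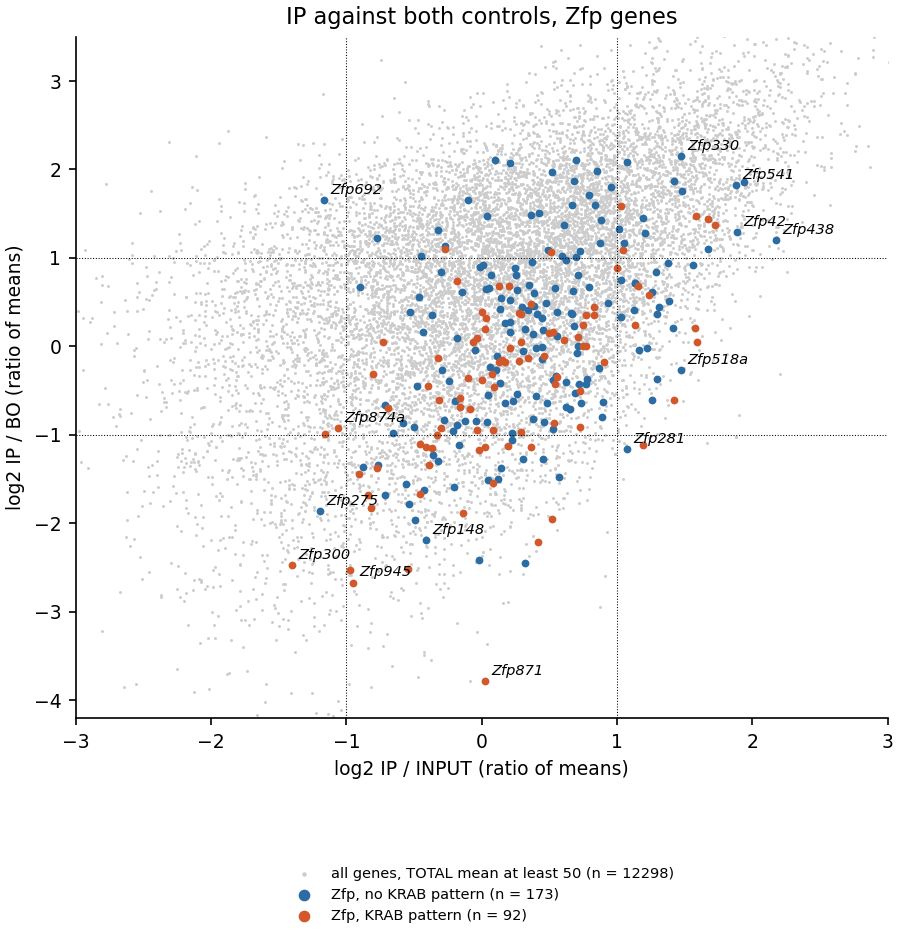
Log2 ratio of IP to INPUT (x axis) against IP to BO (y axis) for background genes (grey, 94 outside the axes) and Zfp genes without (blue) and with (orange) the KRAB pattern. Dotted lines mark 2-fold differences. Zfp438, Zfp541, Zfp42 and Zfp330 are among the 18 members at the upper right, Zfp281 and Zfp518a lie at the lower right, Zfp275 and Zfp300 at the lower left, and Zfp871 at the bottom.

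The 5 members with the highest TOTAL means after Zfp518a differed in their ratios. Zfp106, which encodes an RNA-binding protein, had log2 ratios of 0.82 over TOTAL, 0.05 over INPUT and -0.55 over BO. Zfp644, a partner of the histone methyltransferase G9a, had 0.80, 0.65 and -0.71. Zfp704 had 1.17, 0.53 and -0.94. Zfp148, a factor of GC-rich promoters, had 0.20, -0.41 and -2.19, with means of 18033 in BO and 3961 in IP. Zfp207 was the one of the 6 above 1 over BO.

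Members with described functions spanned a wide range. Zfp568, a KRAB protein that silences a placental Igf2 transcript, had log2 ratios of 2.00 over TOTAL, 1.14 over INPUT and 0.24 over BO, with means of 828 in TOTAL and 3306 in IP. Zfp809, a KRAB protein that silences endogenous retroviruses, had -0.51 over TOTAL and -0.33 over INPUT, and over BO it was lower, with means of 225 in BO and 112 in IP. Zfp318 had 1.83, 1.25 and 0.62, and its level in IP reached 11242. Zfp37, a testis-expressed gene, had 0.53, 1.56 and 0.92. Zfp59, another testis gene, had 1.08, 1.13 and 0.71, with 39.1% of its 75-base words shared.

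Zfp36 encodes tristetraprolin, a CCCH protein that promotes decay of AU-rich mRNAs. It had log2 ratios of -0.91 over TOTAL, 0.44 over INPUT and -0.14 over BO. Zfp326, a factor of mRNP assembly and splicing, had 0.26, 0.11 and -0.11. Zfp423 (-0.63, -0.88 and -1.36) and its paralogue Zfp521 (-0.11, -0.49 and -1.96) are transcription factors of neural and mesenchymal progenitors. Zfp711 on the X chromosome had 0.40, 0.72 and -0.43, and Zfp91, an E3 ubiquitin ligase gene, 0.49, 0.25 and 0.80. Zfp292 (0.94, 0.57 and -1.47) and Zfp462 (0.80, 0.30 and -1.28) were below 0 over BO only. The imprint regulator Zfp57 and Zfp819 were under the floor, with TOTAL means of 37.8 and 21.7.

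**Figure D5:**
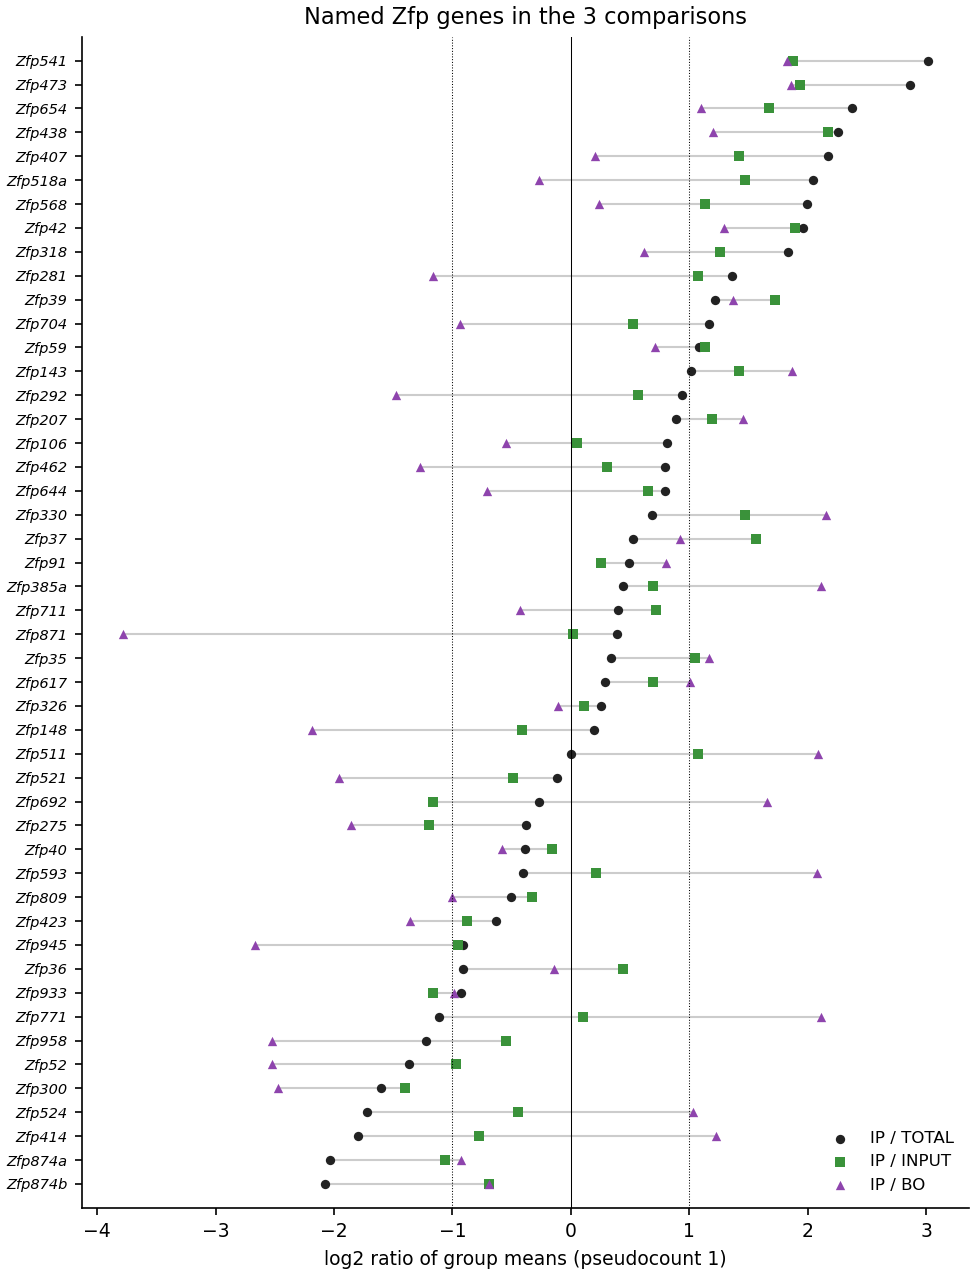
Log2 ratios of IP to TOTAL (circles), INPUT (squares) and BO (triangles) for 48 Zfp genes named by level, ratio or known function, ordered by IP over TOTAL, with dotted lines at 2-fold. Zfp541 and Zfp473 lie above 1 in all 3, and for Zfp871 the triangle stands at -3.79 while the other symbols lie near 0.

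Genes of the corepressor that KRAB proteins recruit were put in a list with other silencing genes, such as Dnmt1, Atrx and Smchd1. The mRNAs of this list had higher median ratios than the Zfp genes. Of its 21 symbols, 20 were present in the data, and the remaining symbol, Tasor, is an alias of Fam208a, which was present. Their median log2 ratio was 1.46 over TOTAL, 1.13 over INPUT and 1.06 over BO. More than 2-fold higher were 13, 12 and 10 of the 20, where the background had 20.1%, 19.6% and 44.0%, so that the share over BO (50%) was near the background. Their median TOTAL mean was 2600, against 253 for the Zfp members, and the part of this difference in level was not tested. Trim28, the corepressor itself, had 1.45, 0.68 and 2.05, and Setdb1, its histone methyltransferase, had 2.51, 1.58 and 1.80. Over BO the genes ranged widely. Hdac1 stood at 3.01, while Mphosph8 and Fam208a, both subunits of the HUSH silencing complex, stood at 2.49 and -0.67. Atf7ip, a partner of SETDB1, was at -0.33, and the chromatin remodeller gene Atrx was at -0.94. Cbx5, which encodes HP1 alpha, was the one gene of the list more than 2-fold lower over BO, at -1.38.

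Zinc finger families with other names gave different values. The 35 Zbtb genes, whose BTB domain mediates dimerization, had medians of 0.81, 0.55 and -0.01 over TOTAL, INPUT and BO. The 11 Zkscan genes, which combine SCAN and KRAB domains, had 0.40, 0.12 and -0.02. The 9 Zscan genes had 0.77, 0.59 and 0.80. The 14 Zc3h genes, which encode CCCH proteins that bind RNA, had 0.93, 0.83 and 0.90. The low ratio of IP to BO of the Zfp members was thus also seen in the Zbtb and Zkscan genes. The Zscan and Zc3h medians were close to the background median of 0.82. However, only 1 of the 9 Zscan genes (11.1%) was more than 2-fold higher over BO. The shares were 50.0% for the Zc3h genes and 44.0% for the background.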

How the data were processed

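The tables deposited for TOTAL, INPUT, BO and IP RNA of Mael-/- testes (3 libraries in each group) were used as they stand. Alignment by the authors was to mm10 with STAR 2.6.0c. The authors counted reads over genes and repeat loci and ran DESeq2 1.24.0 on IP against each other group. The deposited signal used here is the authors' mean of normalized counts per group and table. The tables also hold a base mean and the authors' log2 fold change, standard error, Wald statistic and p-values, which were not used. The annotation and strand setting of the gene counts are not given in the sources used here. Rows that name no gene (unmapped, multi-mapping, no feature, ambiguous) took 36.9% of the summed means in BO, 29.6% in INPUT, 37.1% in TOTAL and 21.6% in IP, and were left out. The second signal that the authors deposited, normalized counts per repeat subfamily, served to recover reads per library (100% whole within a tolerance of 0.1).

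Ratios were computed with Python 3.11.15 and pandas 2.3.3 as log2 of means plus 1, and were tested on simulated data. IP means of members in the INPUT and TOTAL tables agreed to within 0.996 and 1.01 times, and those in the BO table were 0.762 to 0.771 times those in the TOTAL table, so INPUT over TOTAL and BO over INPUT were taken as differences of log2 ratios within tables. Gene models are GENCODE M21. All members had a model, 265 by symbol and 1 (Zfp191) by an older symbol. Coding features were read from translated GENCODE coding sequences, where the design had foreseen RefSeq proteins. The KRAB pattern was L, Y or F, any residue, D or E, V, M. Named genes were the 6 with the highest TOTAL mean, the 5 highest and 5 lowest per ratio, 3 on either side of the floor, and a list of genes of known function. The runs of neighbours and the genes in counts of 20 or fewer were chosen after values were seen. Members and lists were chosen with earlier results of these data known. Alternatives were pseudocounts of 0.1 and 10, other scalings, floors and fold thresholds, at least 2 C2H2 patterns, and the median transcript.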

Additional observations from a re-analysis of the deposited data

How the results depend on the processing

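No paired analysis was possible because the gene tables give 1 mean per group, and for the same reason no replicate was left out. A scaling shifts all genes of a comparison alike. It turned the direction of the members' median in IP over TOTAL, IP over INPUT and IP over BO, while BO over INPUT and INPUT over TOTAL stayed above 0 under both scalings tried. With each comparison centred on the median gene, the members' median log2 ratio was 0.154 for IP over INPUT, -0.806 for IP over BO, 0.194 for INPUT over TOTAL and 1.075 for BO over INPUT. Then 10 members were more than 2-fold lower than in INPUT, 11 higher and 113 lower than in BO, and 4 higher than in both BO and INPUT, against 17.8%, 17.7%, 23.6% and 8.16% of all genes. With means scaled to the same sum over genes, the medians were -0.118 for IP over TOTAL, -0.217 for IP over INPUT, -0.276 for IP over BO and 0.172 for BO over INPUT. Then 18 members were higher and 53 lower than in TOTAL, 11 higher and 29 lower than in INPUT, and 6 higher than in both BO and INPUT. The shares of all genes were 9.07% and 37.8%, 8.08% and 27.7%, and 6.86%.

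With a floor of 10 (319 members), 10 members were lower than in INPUT (16% of all genes with that floor) and the median of INPUT over TOTAL was -0.032. With a floor of 200 (155 members), the medians were 0.65 for IP over TOTAL, 0.454 for IP over INPUT and 0.147 for INPUT over TOTAL. Then 6 members were lower than in TOTAL, 29 higher and 1 lower than in INPUT, 28 higher and 26 lower than in BO, and 10 higher than in both. The shares of all genes with that floor were 23.1%, 21.2% and 12.2%, 45.8% and 10.2%, and 16.4%. With no floor (347 members above 0 in TOTAL), 37 were lower than in TOTAL (26.1% of all genes), 15 lower than in INPUT (14.9%), and the median of INPUT over TOTAL was -0.033. Fewer or more genes enter these counts by construction.

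With a 1.5-fold threshold, 104 members were higher and 44 lower than in TOTAL, 90 higher and 21 lower than in INPUT, 77 higher and 84 lower than in BO, and 44 higher than in both BO and INPUT. The shares of all genes were 31.7% and 35.3%, 34.1% and 24.4%, 57.2% and 16.3%, and 27.5%. With a 3-fold threshold the numbers were 18 and 5, 9 and 0, 19 and 20, and 2, against 8.12% and 15.7%, 7.21% and 6.11%, 24.4% and 5.4%, and 5.5%. The difference between the KRAB and other members in IP over BO was -0.587 and -0.552 with pseudocounts of 0.1 and 10, -0.439, -0.392 and -0.378 with floors of 10, 200 and none, and -0.669 with at least 2 C2H2 patterns.

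Of the 118 values, 6 changed sign, 45 moved without a change of sign and 67 were taken as unchanged. For a count, unchanged meant within 1.5 times the reported one. For a median, it meant inside an interval around the reported median set by binomial ranks. For the difference between KRAB and other members, it meant the same rounded value. Examples of unchanged values are 31 higher and 69 lower than in BO with equal sums, against 34.1% and 14.3% of all genes. Another is 31 higher than in INPUT after centring, against 15.2% of all genes. Among the named genes, with equal sums 22 of the 76 values past 2-fold were no longer past 2-fold, 21 others passed it and 25 of 162 values changed sign. After centring these numbers were 15, 15 and 13, and with a pseudocount of 10, 9 values were lost.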
